A study of Mus musculus with 76 samples.

Results

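Cytokine and TNF superfamily receptor genes were described in single macrophages from mouse hearts, taken at the atrioventricular (AV) node, the part of the heart that relays the beat from atria to ventricles. The members were chosen by symbol, as every row of the deposited table named as an interleukin receptor, a numbered TNF receptor superfamily member, a chain of the type I interferon or interferon gamma receptor, a receptor of the CSF2 or CSF3 type, a TGF-beta receptor or a Toll-like receptor, and they came to 42 of 9235 genes. Of these 41 encode receptor chains, accessory chains or decoys, and 1, Il1rn, encodes a secreted antagonist of IL-1 that the symbol rule also takes in. All libraries came from 1 group, wild-type C57BL/6J mice with no treatment named, and each library was 1 cell caught on a Fluidigm C1 microfluidic chip after perfusion, excision and enzymatic digestion of the triangle of Koch and a sort for cells high in CD45, CD11b and F4/80, low to intermediate in Ly6C, and low in lineage markers such as B220. Age, number of animals and any division into chips or days are not given in the sources used here, so all cells count as 1 sample and no test between conditions was possible.

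Cytokine receptors of classes I and II have no enzyme of their own and signal through Janus kinases bound to their paired chains, which phosphorylate STAT transcription factors. TGF-beta receptors are paired serine and threonine kinases that act on SMAD proteins. TNF receptor superfamily members recruit TRAF adaptors or death domain proteins, and most Toll-like and IL-1 family receptors recruit MyD88 and IRAK kinases. Both routes lead to NF-kB. Resident macrophages of the heart are known to live on colony stimulating factor 1 and to answer to interferon gamma, TGF-beta, IL-4, IL-10 and microbial products, and most of these receptors work only when both chains are present.

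First shown are the 250 bases before the transcription start of 3 genes. They are the transcript found in the most cells, its partner chain, and the transcript called with the most scores of cell state. Members were called with these scores at shares near those of all genes, so the last is shown as an example only. The sequences are those of RefSeq on GRCm38.p6, at chr10:19591699-19591948 (plus strand) for Ifngr1, chr16:91546809-91547058 (plus strand) for Ifngr2 and chr9:116175364-116175613 (minus strand) for Tgfbr2, and are written 5′ to 3′ along the gene. Capitals mark the GC box GGGCGG and the Ets-type motif GAGGAAG on either strand.
Ifngr1: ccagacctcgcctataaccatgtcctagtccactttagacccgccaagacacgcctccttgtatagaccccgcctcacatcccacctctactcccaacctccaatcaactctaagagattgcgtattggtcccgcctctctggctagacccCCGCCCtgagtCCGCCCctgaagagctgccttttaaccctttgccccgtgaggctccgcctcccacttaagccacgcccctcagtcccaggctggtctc
Ifngr2: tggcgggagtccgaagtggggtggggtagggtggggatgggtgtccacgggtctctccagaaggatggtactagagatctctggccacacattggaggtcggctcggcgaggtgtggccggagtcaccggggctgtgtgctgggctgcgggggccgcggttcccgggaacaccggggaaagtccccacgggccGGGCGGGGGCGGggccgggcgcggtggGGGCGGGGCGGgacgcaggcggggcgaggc
Tgfbr2: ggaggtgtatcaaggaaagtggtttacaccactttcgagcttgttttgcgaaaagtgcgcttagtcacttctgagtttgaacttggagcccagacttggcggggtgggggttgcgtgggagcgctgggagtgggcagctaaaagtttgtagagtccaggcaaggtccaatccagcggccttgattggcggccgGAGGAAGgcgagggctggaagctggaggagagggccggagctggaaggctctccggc
The Ifngr1 window held 2 GC boxes and the Ifngr2 window 4, and neither held GAGGAAG, a form of the motif read by PU.1 and related factors. Shorter or other forms of that motif were not counted. The Tgfbr2 window held 1 match of GAGGAAG and no GC box. A promoter was listed for 35 of the 42 members. In these, the GC box was found in 45.7% of windows, against 60.2% over the 6223 genes of the table with a listed promoter and 32.9% over all 27025 promoters of the same length. The letters GAGGAAG were found in 22.9% of members, 11.3% of table genes and 2807 of the 27025 promoters. The interferon gamma activated motif TTCNNNGAA was found in 17.1% of members, 5.96% of table genes and 7.18% of all promoters, the interferon response core (GAAA, any 2 bases, GAAA) in 8.57%, 2.88% and 3.04%, and TATAAA in 5.71%, 6.32% and 13.0%. Both strands were searched, and a match is a match of letters, not a site shown to be bound.

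Receptor promoters differed in their number of CpG dinucleotides along with how widely the gene was detected. The 12 members with a promoter that were above 0 in 50% or more of cells held a median of 14.5 CpG, with a range from 3 to 31, and the 23 others a median of 5, with a range from 0 to 30. Tnfrsf11a and Ifngr2 were at the upper end among the first, with 31 and 25 CpG, and Il2rg at the lower end with 3. Across the 35 members the Spearman rho of CpG number with cells above 0 was 0.459, and across the 6223 genes of the table it was 0.0195. These are correlations across genes, which are not independent replicates, and are given as descriptions.

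Values are read counts scaled to the same total in every library (CPM) that the authors deposited for 76 libraries. Libraries of transcriptomes 13 and 19 were nearly identical (Pearson r of log2(CPM + 1) 0.978, where the next of the 2849 further pairs had 0.421, and chi-square per degree of freedom 1.30, where the next had 131), so they differed by little more than the sampling noise and were counted as 1 cell by their mean, which left 75 cells. The estimated depth per library had a median of 2125421 reads and lay between 259557 and 6294146. Libraries held 2324 to 4382 genes above 0. All 13 macrophage markers with values passed 0 CPM in 50% or more of cells, and their sum ran from 3675.8 through a median of 43734.1 to 76127.0 CPM. Of the listed neutrophil, mast cell or basophil and endothelial markers none had values, and these were not analysed here. Markers of other cell types did have values. The 5 dendritic cell markers summed to between 0 and 7031.1 CPM, with a median of 13.1. The 4 cardiomyocyte markers summed to at most 821.8 CPM, and the fibroblast marker Gsn was above 0 in 40 cells, up to 3145.2 CPM. The 1 T or NK cell marker, Lck, reached 357.9 CPM, and the 3 B cell markers summed to at most 5677.1 CPM. CPM are not divided by gene length, so levels of different genes are compared only where a value per kilobase is given. Ranges in brackets after a share are 95% Clopper-Pearson intervals. They cover counting error alone, since reads have no molecular identifiers and cells are not replicates.

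Receptor transcripts were present in every cell, in different sets from cell to cell. A cell held between 11 and 25 of the 42 members above 0 CPM, with a median of 16, and between 2 and 16 at 10 CPM or more, with a median of 9. Cells with more genes above 0 held more members, with a Spearman rho of 0.593 over 75 cells. The members together took 4270 ± 2358 CPM (mean ± SD over 75 cells), with a lowest value of 389.8, a median of 3900 and a highest of 10200 CPM. Of the 42 members 15 were above 0 in 50% or more of cells, or 35.7%, against 23.9% of all 9235 genes. At 10 CPM or more 1 member reached that share, against 8.88% of all genes, and 5 did after every library was thinned to 250000 reads, against 13.1% of all genes. Much of the breadth of detection therefore lay in low values: 47.4% of the members' values above 0 were below 10 CPM, close to the 45.7% over all genes.

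**Figure D1:**
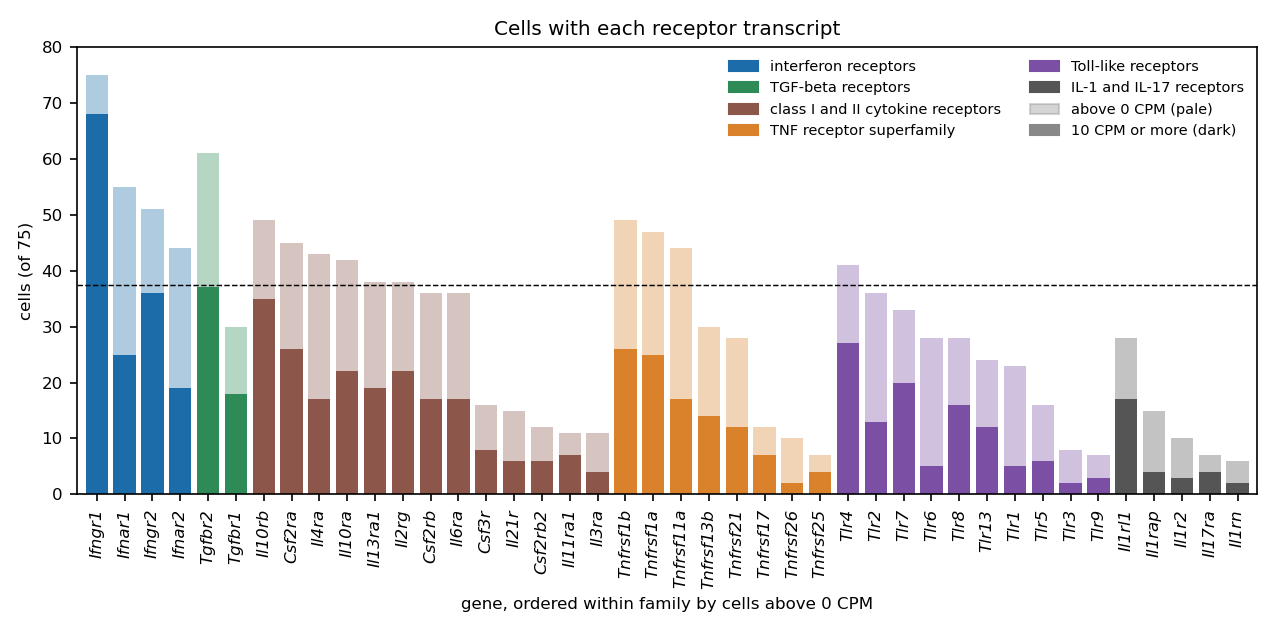
Number of cells, of 75, in which each of the 42 members was above 0 CPM (pale bars) and at 10 CPM or more (dark bars), grouped by receptor family. The dashed line marks 50% of the cells. Ifngr1 was above 0 in 75 cells, of which 68 had 10 CPM or more, and no other dark bar reached the line.

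All 4 interferon receptor genes were above 0 in 50% or more of cells, against 23.9% of all genes. At 10 CPM 1 of the 4 reached that share and after thinning 2, against 8.88% and 13.1% of all genes. Ifngr1, the ligand-binding chain of the interferon gamma receptor, was the only member above 0 in every cell, 75 of 75 (lower bound 95.2%), and reached 10 CPM in 68 cells and 100 CPM in 46. Its values ran from 3.7 CPM through a median of 455.3 to 6197.8 CPM, with a mean of 769 ± 970 CPM (SD, n = 75). Per kilobase of exons, by gene lengths of GENCODE M21, its mean was 270 CPM, and the next members were Il10ra at 51.5, Il2rg at 49.8, Tnfrsf17 at 49.6 and Ifngr2 at 49.5 CPM per kilobase. The Tnfrsf17 mean rests on few cells, since 97.4% of its CPM lay in the 5 highest.

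Ifngr2, the chain that brings JAK2 to the interferon gamma receptor, was above 0 in 51 cells, or 68.0% (56.2 to 78.3%), and at 10 CPM in 36. It ran from 0 through a median of 3.5 to 1759.1 CPM, with a mean of 187 ± 350 CPM. Over the cells where it was detected its median was 99.2 CPM. The chains of the type I interferon receptor were found in 55 cells for Ifnar1 and 44 for Ifnar2, at 10 CPM in 25 and 19. Ifnar1 had a median of 1.4 and a highest value of 4338.3 CPM, a mean of 227 ± 810 CPM, and 81.4% of its CPM lay in the 5 highest cells. Ifnar2 had a median of 0.3 and a highest value of 1787.1 CPM, and a mean of 89.8 ± 290 CPM.

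The TGF-beta receptor chains were detected unequally. Tgfbr2, the type II kinase that binds the ligand first, was above 0 in 61 cells, or 81.3% (70.7 to 89.4%), the second highest count of the 42, and reached 10 CPM in 37. Its values ran from 0 through a median of 7.1 to 2817.7 CPM, with a mean of 289 ± 667 CPM. Tgfbr1, the type I kinase that phosphorylates SMAD2 and SMAD3, was above 0 in 30 cells, or 40.0% (28.9 to 52.0%), and at 10 CPM in 18, with a highest value of 1446.9 and a mean of 77.5 ± 245 CPM.

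Among class I and II cytokine receptors 6 of 13 were above 0 in 50% or more of cells, against 23.9% of all genes. The 6 came to 0 at 10 CPM and 1 after thinning, against 8.88% and 13.1% of all genes. Il10rb, a chain shared by IL-10 and related cytokines, was above 0 in 49 cells with a median of 6.1, a highest value of 1653.95 and a mean of 149 ± 318 CPM, and at 10 CPM in 35. Il10ra, which binds IL-10, was above 0 in 42 cells, of which 22 had 10 CPM or more, with a median of 0.5, a highest value of 2161.3 and a mean of 180.1 ± 480.4 CPM. Csf2ra, the binding chain for GM-CSF, was above 0 in 45 cells, with a median of 0.9, a highest value of 1624.3 and a mean of 90.4 ± 237 CPM. Il4ra, the IL-4 binding chain, was above 0 in 43 cells, but its median among those cells was only 2.4 CPM, and it reached 10 CPM in 17. Its highest value was 2895.3 and its mean 178 ± 578 CPM. Its partners Il13ra1, the IL-13 binding chain, and Il2rg, the common gamma chain, were each above 0 in 38 cells, and at 10 CPM in 19 and 22. Il13ra1 had a highest value of 4212.5 and a mean of 174 ± 599 CPM, and Il2rg of 1545.4 and 119 ± 321 CPM.

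The other 7 genes of this class lay below that share. Csf2rb, the common beta chain of the GM-CSF, IL-3 and IL-5 receptors, and Il6ra, which binds IL-6, were each above 0 in 36 cells, and each had 17 of them at 10 CPM or more. Csf2rb ran from 0 to 4087.6 CPM and Il6ra from 0 to 1122.9 CPM, both had a median of 0, and their means were 169 ± 628 and 64.6 ± 193 CPM. Csf3r, the receptor for G-CSF, was above 0 in 16 cells, Il21r in 15, Csf2rb2, the beta chain specific to IL-3, in 12, and Il11ra1 and Il3ra in 11 each. Csf2rb2 lies next to Csf2rb and is a near copy of it, so reads may have been shared or lost between them and both counts are uncertain. The Il11ra1 locus overlaps Ccl27a in the RefSeq annotation, and without strand its reads cannot be told apart from that gene's.

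**Figure D2:**
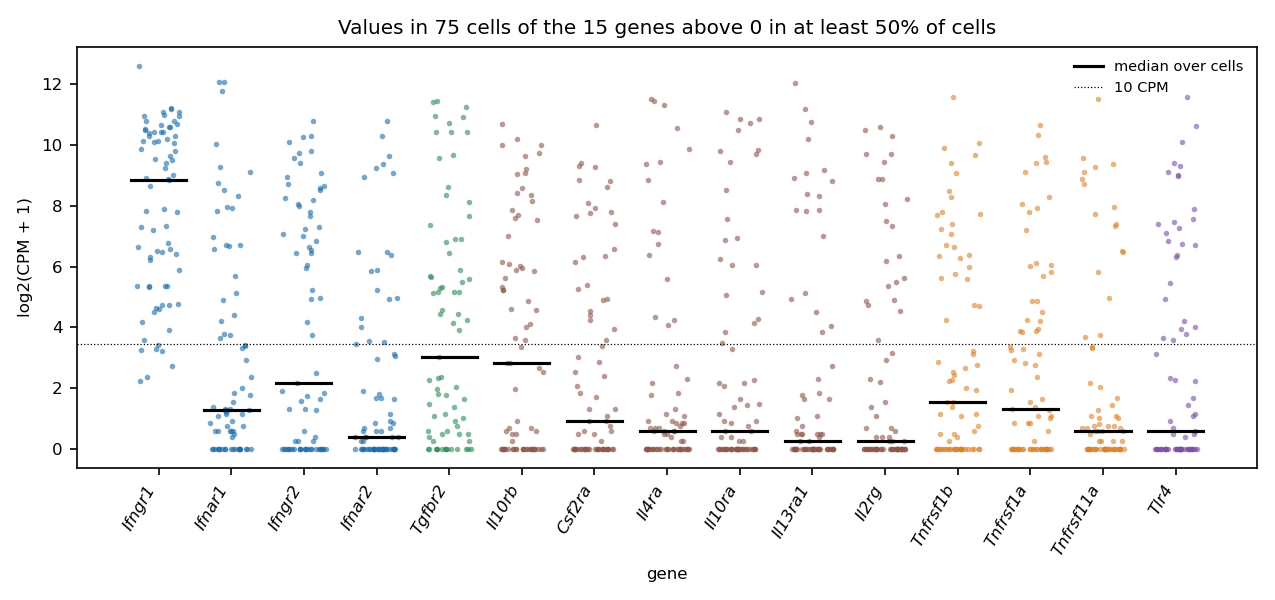
Values of the 15 members above 0 in 50% or more of cells, as log2(CPM + 1), with 1 point per cell (75 cells), a bar at the median and a dotted line at 10 CPM. The Ifngr1 median of 455.3 CPM lies above the dotted line, whereas the medians of the other 14 genes, up to 7.1 CPM for Tgfbr2, lie below it.

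Of the 8 TNF receptor superfamily genes 3 were above 0 in 50% or more of cells, against 23.9% of all genes. The 3 came to 0 at 10 CPM and 1 after thinning, against 8.88% and 13.1% of all genes. Tnfrsf1b, which encodes TNF receptor 2, was above 0 in 49 cells with a median of 1.9, a highest value of 3090.9 and a mean of 130 ± 408 CPM, and Tnfrsf1a, which encodes the death domain receptor for TNF, in 47 cells with a median of 1.5, a highest value of 1610.9 and a mean of 97.9 ± 278 CPM. They reached 10 CPM in 26 and 25 cells. At least 1 of both was above 0 in 63 cells, of which 42 had 10 CPM or more. Tnfrsf11a, which encodes RANK, the receptor for the osteoclast factor RANKL, was above 0 in 44 cells, of which 17 had 10 CPM or more, with a highest value of 2904.6 and a mean of 100.1 ± 367 CPM.

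The remaining genes of this family were found in fewer cells. Tnfrsf13b, which encodes TACI, a receptor for BAFF and APRIL best known from B cells, was above 0 in 30 cells, of which 14 had 10 CPM or more, with a highest value of 2175.9 and a mean of 81.0 ± 332 CPM. Tnfrsf21, which encodes death receptor 6, was above 0 in 28 cells, and Tnfrsf17, which encodes the plasma cell receptor BCMA, in 12. Tnfrsf26 was above 0 in 10 cells and Tnfrsf25, which encodes death receptor 3, in 7. In the 7 cells with Tnfrsf17 at 10 CPM, the immunoglobulin gene Ighm was at 10 CPM in 6 and the B cell gene Cd79b in 0, against 45 and 5 of the 68 other cells. In the 14 cells with Tnfrsf13b at 10 CPM, Ighm was at that level in 12 and Cd79b in 2, against 39 and 3 of the 61 others, and Ebf1 was at 10 CPM in 0 cells of either kind. The part of B cell RNA in these receptor values was not tested. The Tnfrsf13b locus overlaps Usp22 in the RefSeq annotation.

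Of the 10 Toll-like receptor genes 1 was above 0 in 50% or more of cells, against 23.9% of all genes. This was Tlr4, the receptor for lipopolysaccharide, which was above 0 in 41 cells, or 54.7% (42.7 to 66.2%), and at 10 CPM in 27, with a median of 0.5, a highest value of 3079.6 and a mean of 138 ± 430 CPM. Tlr2, which with TLR1 or TLR6 binds lipopeptides, was above 0 in 36 cells but at 10 CPM in 13, with a highest value of 2220.3 and a mean of 130 ± 453 CPM. Tlr6 and Tlr1 were above 0 in 28 and 23 cells and at 10 CPM in 5 each. Their median values in the cells that had them were 1.10 and 0.900 CPM. Tlr5, the flagellin receptor, was above 0 in 16 cells, of which 6 had 10 CPM or more. Tlr1 and Tlr6 are neighbouring near copies, and the Tlr6 locus overlaps Fam114a1, so these 2 counts are uncertain.

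The other 5 genes encode receptors of endosomes, which read nucleic acids. Tlr7, for single-stranded RNA, was above 0 in 33 cells, of which 20 had 10 CPM or more, with a highest value of 825.5 CPM. Tlr8 was above 0 in 28 cells, of which 16 had 10 CPM or more, and Tlr13, a mouse receptor for bacterial ribosomal RNA, in 24 and 12. Tlr3, for double-stranded RNA, was above 0 in 8 cells and Tlr9, for DNA, in 7. At least 1 of the 5 endosomal genes was above 0 in 59 cells, of which 42 had 10 CPM or more, and at least 1 of the 5 surface genes in 68 and 44.

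The 4 receptor genes of the IL-1 and IL-17 type were the least widely detected. Il1rl1, which encodes the IL-33 receptor ST2, led them in 28 cells, or 37.3% (26.4 to 49.3%), with 17 at 10 CPM, a median of 0, a highest value of 1222.3 and a mean of 87.2 ± 267 CPM. Il1rap, the accessory chain of the IL-1 and IL-33 receptors, was above 0 in 15 cells, of which 4 had 10 CPM or more, and 1 cell, at 4196.6 CPM, held most of its total. The decoy receptor Il1r2 was above 0 in 10 cells and Il17ra in 7. The antagonist Il1rn, which is no receptor, was above 0 in 6.

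Both chains of a receptor were seldom found in the same cell above 10 CPM. Of 15 pairs of chains with values, the interferon gamma receptor was the only one with both chains above 0 in 50% or more of cells, in 51 of 75, and it had both at 10 CPM in 34, or 45.3% (33.8 to 57.3%). Since Ifngr1 was above 0 in every cell, this count is that of Ifngr2. Both type I interferon receptor chains were above 0 in 33 cells, which is 60.0% of the cells with Ifnar1 and 75.0% of those with Ifnar2, and both were at 10 CPM in 8. A cell held between 0 and 7 complete pairs above 0, with a median of 4, and between 0 and 5 at 10 CPM, with a median of 1. No pair was complete at 10 CPM in 15 cells.

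Above 0 CPM the receptor pairs for IL-10, TGF-beta, GM-CSF and IL-4 or IL-13 were complete in about 1 cell of 3, and at 10 CPM in fewer. Il10ra and Il10rb were both above 0 in 24 cells, or 32.0% (21.7 to 43.8%), and 8 cells held neither. Both were at 10 CPM in 8 cells. The counts were 22 cells above 0 for Tgfbr1 with Tgfbr2, 24 for Csf2ra with Csf2rb, 22 for Il4ra with Il2rg and 26 for Il4ra with Il13ra1, and at 10 CPM 11, 9, 6 and 6. Il6ra and Il6st, the signalling chain gp130, were both above 0 in 13 cells, of which 2 had both at 10 CPM or more. Il1rl1 and its accessory chain Il1rap were both above 0 in 5 of the 28 cells with Il1rl1 and at 10 CPM in 2. Tlr4 and Ly96, which encodes its partner MD-2, were both above 0 in 15 cells, of which 6 had both at 10 CPM or more. Tlr2 met Tlr1 in 14 cells and Tlr6 in 12. A chain listed at 0 was not detected at the depth of its library, so these are counts of chains detected and not of chains present.

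**Figure D3:**
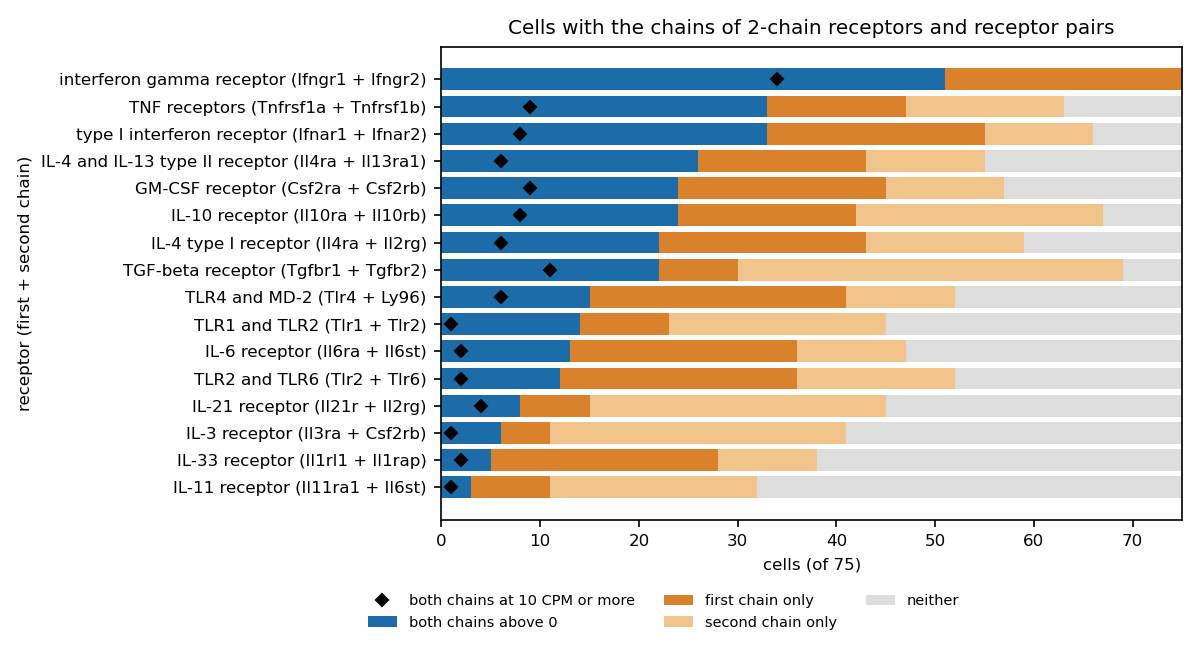
Number of cells, of 75, with both chains, 1 chain or neither chain of each receptor above 0 CPM, for 15 pairs of chains and for the pair of TNF receptors, with diamonds for both chains at 10 CPM or more. Both chains of the interferon gamma receptor were above 0 in 51 cells, and the diamonds of the other pairs lie at 11 cells or fewer.

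Receptor transcripts were then set against 6 scores of cell state, each the mean of standardised log2(CPM + 1) over a list of genes: tissue-resident (15 genes, among them Lyve1, Timd4 and Folr2), MHC class II (10 genes), monocyte-derived (6 genes, among them Ccr2 and Cd52), immediate early and heat shock (23 genes), interferon response (16 genes) and inflammatory (13 genes). A gene was called with a score at a Spearman rho of at least 0.3 or at most -0.3 over the 75 cells. The rank correlation is a description of 1 sample of cells from a shared preparation and carries no p. It could be computed for the 38 members above 0 in at least 8 cells, which leaves out Il17ra, Tnfrsf25, Tlr9 and Il1rn. Of the 228 combinations of member and score, 5 were called higher, or 2.19%, against 1.6% over all genes, and 4 lower, or 1.75%, against 1.08%. Both shares lie near those of all genes. The lowest macrophage marker sum, 3675.8 CPM, and the highest dendritic cell marker sum, 7031.1 CPM, lay in the same groups of cells for several scores. These included the 25 cells lowest for the tissue-resident score and the 25 highest for the MHC class II and monocyte-derived scores. The part of such cells in the calls was not tested. The 7 genes called are described 1 by 1.

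Tgfbr2 was called with 3 scores. Its rho was 0.349 with the tissue-resident score, -0.353 with the monocyte-derived score and 0.324 with the interferon response score. With values below 10 CPM set to 0 these were 0.266, -0.271 and 0.232, all under the threshold in size. In the 25 cells lowest for the tissue-resident score Tgfbr2 was above 0 in 15 cells and had a median of 1.1 CPM, and in the 25 highest it was above 0 in all 25 and had a median of 34.4 CPM. At 10 CPM the counts were 8 and 16 cells, and after thinning to equal depth 10 and 20. The ranges overlapped, since the highest values were 2703.5 and 2817.7 CPM. For the monocyte-derived score it was above 0 in 24 of the lowest and 16 of the highest 25 cells, with medians of 22.9 and 1.0 CPM, and in 18 and 10 after thinning. The 3 scores are not independent, as the tissue-resident score had a rho of -0.525 with the monocyte-derived and of 0.255 with the interferon response score.

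Lyve1 and Ccr2 are genes of the tissue-resident and monocyte-derived scores, so a split of the cells by either restates the score for 1 gene and is no separate support. With Ccr2 left out of the monocyte-derived score the rho of Tgfbr2 was -0.279, under the threshold in size. Tgfbr2 was above 0 in 42 of the 45 cells with Lyve1 at 100 CPM or more, or 93.3% (81.7 to 98.6%), and in 19 of the 30 others, or 63.3% (43.9 to 80.1%), and at 10 CPM in 27 and 10. Among the 23 cells with Ccr2 at that level it was above 0 in 14, or 60.9% (38.5 to 80.3%), against 47 of 52, or 90.4% (79.0 to 96.8%), and at 10 CPM in 4 and 33.

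**Figure D4:**
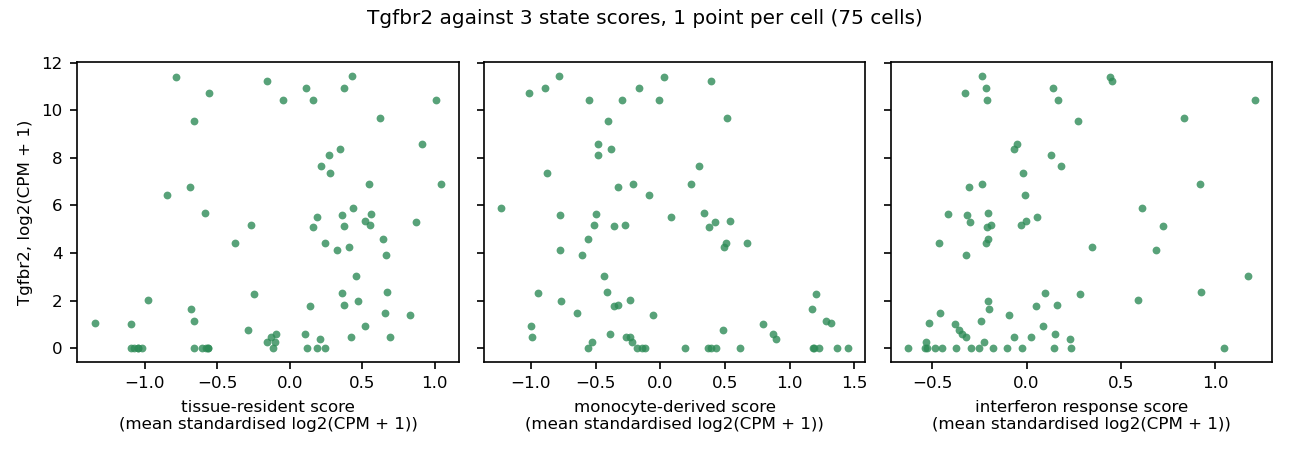
Tgfbr2, as log2(CPM + 1), against the tissue-resident, monocyte-derived and interferon response scores, with 1 point per cell (75 cells). Cells without Tgfbr2 are found mostly at low tissue-resident and high monocyte-derived scores (rho 0.349 and -0.353), and values vary widely at every score.

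With the tissue-resident score 3 of 38 members were called higher, or 7.89%, against 2.62% of all 8351 genes tested, and 0 lower, against 2.06%. Beside Tgfbr2 these were Il1rap, with a rho of 0.309, and Tnfrsf17, with a rho of 0.307. Il1rap was above 0 in 1 of the lowest and 10 of the highest 25 cells, but at 10 CPM in 0 and 1 and after thinning in 0 and 1, so nearly all of its detected values here were under 10 CPM. Tnfrsf17 was above 0 in 2 and 7 cells, at 10 CPM in 0 and 6 and after thinning in 0 and 6, and its highest value among the upper cells was 1418.3 CPM. The sum of the 3 B cell markers with values ran from 0 through a median of 124.4 to 5677.1 CPM in the lower and from 0 through 548.8 to 4430 CPM in the upper cells of this score, and its part in the Tnfrsf17 values was not tested. Of the 75 cells 20 had a score within 0.1 of a boundary of these groups of 25.

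With the monocyte-derived score 1 member was called higher, or 2.63%, against 2.54% of all genes, and 2 lower, or 5.26%, against 1.27%. Il1rl1 was the one higher, with a rho of 0.318. It was above 0 in 6 of the lowest and 15 of the highest 25 cells, at 10 CPM in 4 and 9 and after thinning in 5 and 11, and its highest values were 50.5 and 1222.3 CPM. Tlr7, with a rho of -0.331, was lower together with Tgfbr2, being above 0 in 15 of the lowest and 6 of the highest 25 cells, in 11 and 6 after thinning, and at 10 CPM in 9 and 5. The cells highest for this score had more genes above 0, with a median of 3354 against 2983, and the rho of the score with genes above 0 was 0.283. Given the genes above 0 per cell, rho was 0.281 for Il1rl1, which is under the threshold, -0.357 for Tgfbr2 and -0.325 for Tlr7. The sum of the 3 B cell markers with values, of which Ighm was above 0 in 69 cells, Ebf1 in 21 and Cd79b in 6, ran from 0 through a median of 1212.8 to 4739.8 CPM in the lowest and from 0 through 128.1 to 3565.8 CPM in the highest 25 cells of this score. Its part in the 3 receptor differences was not tested. Split by Ccr2 at 100 CPM, which is 1 of the 6 genes of the score and so no separate support, Tlr7 was above 0 in 4 of 23 cells against 29 of 52, or 17.4% (4.95 to 38.8%) against 55.8% (41.3 to 69.5%), and Il1rl1 in 13 of 23 against 15 of 52.

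The other scores had few called members. With MHC class II none of the 38 was called higher (1.5% of all genes) and 1 lower (1.71%): Tlr3, with a rho of -0.316, which was above 0 in 7 of the lowest and 0 of the highest 25 cells, and at 10 CPM in 1 and 0. After thinning it was found in 2 and 0. With the immediate early and heat shock score none was higher (0.934%) and 1 lower (0.647%): Il21r, with a rho of -0.322, above 0 in 8 and 2 cells and at 10 CPM in 5 and 0. With the interferon response score 1 was higher, Tgfbr2 (1.37%), and none lower (0.467%). The 4 interferon receptor genes were not among those called with it. With the inflammatory score none was higher (0.647%) or lower (0.335%). Ifngr1 lay just outside, with a rho of 0.297 and medians of 89.7 CPM in the lowest and 1121.6 CPM in the highest 25 cells, and so did Il13ra1, with a rho of 0.293.

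**Figure D5:**
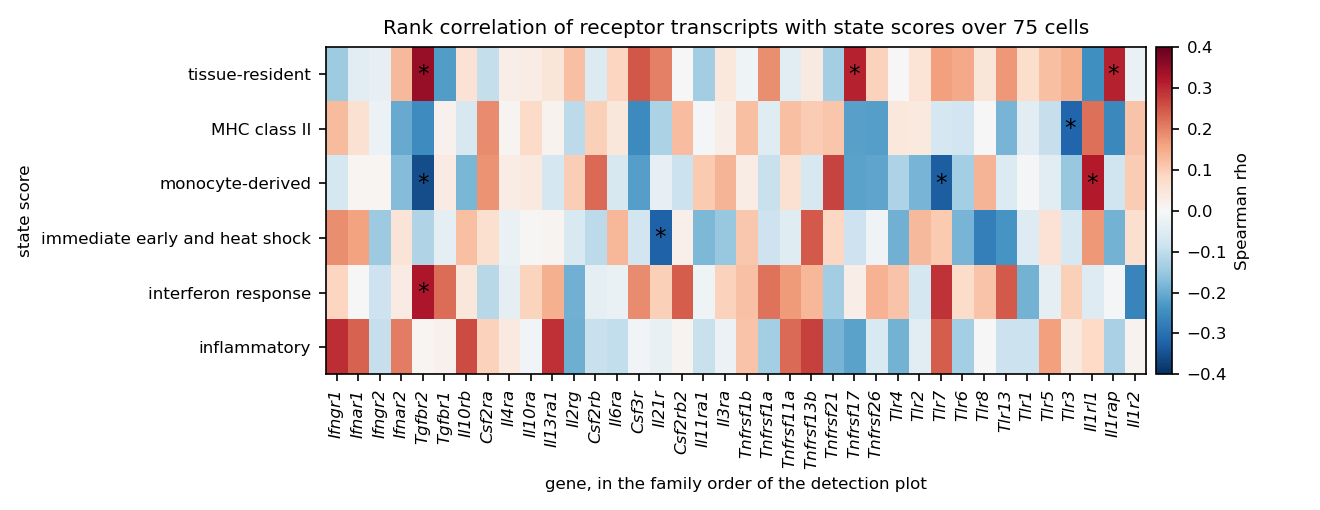
Spearman rho over 75 cells of 38 members with 6 state scores, red for positive and blue for negative, with a star where rho was at least 0.3 or at most -0.3. There are 9 stars, 3 of them for Tgfbr2.

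Rank correlations between members were mostly near 0, as they were over all pairs of genes. Many of the values are 0 or low, so a rho near 0 does not show that members vary independently. Over 703 pairs of members the median rho was 0.0174, against 0.0111 over all 34865425 pairs of genes. A rho of at least 0.3 was found for 5 pairs of members, or 0.711%, against 1.0% of all pairs, and of at most -0.3 for 3 pairs, against 0.228% of all. The 5 highest were Il3ra with Tlr8 (rho 0.366), Tgfbr1 with Tlr4 (0.353), Il10rb with Tnfrsf1b (0.335), Ifngr2 with Tlr1 (0.311) and Tlr13 with Tnfrsf13b (0.306). The 5 lowest were Ifnar2 with Tnfrsf1b (-0.334), Tlr4 with Tnfrsf1b (-0.314), Il21r with Tlr2 (-0.309), Ifngr1 with Il6ra (-0.291) and Il1rap with Tnfrsf21 (-0.283). Tgfbr1 was above 0 in 30 cells, and 22 of these also held Tlr4. The chains of the IL-10 receptor were near the lower end, with a rho of -0.272.

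Some members lie side by side in the genome. Ifnar2, Il10rb, Ifnar1 and Ifngr2 follow each other as neighbours in the RefSeq gene order, and rho was 0.0890 for Ifnar2 with Il10rb, 0.155 for Il10rb with Ifnar1 and -0.0490 for Ifnar1 with Ifngr2. It was 0.223 for Csf2rb with Csf2rb2, 0.0979 for Tlr1 with Tlr6 and 0.0800 for Tlr7 with Tlr8. None of these pairs of neighbours reached 0.3.

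Partners that the symbol rule does not take were counted from lists of pathway genes. The shares to read these counts against are 23.9% of all genes above 0 in 50% or more of cells and 8.88% at 10 CPM. Of 18 other receptors and co-receptors with values 3 were above 0 in that share of cells, all 3 also at 10 CPM. They were Csf1r, the receptor for colony stimulating factor 1, in 75 cells, with values from 0.7 through a median of 2513.3 to 8998.1 CPM, the lipopolysaccharide co-receptor Cd14 in 74 cells, with a median of 506.0 CPM, and Lifr, the receptor for leukaemia inhibitory factor, in 73 cells, with a median of 295.2 CPM. Ly96 was above 0 in 26 cells and Il6st, the chain that Lifr and Il6ra both use, in 24. Csf1r had a rho of 0.393 with the tissue-resident and -0.366 with the monocyte-derived score, and Lifr of -0.306 with the latter. Cd14 had a rho of -0.309 with the tissue-resident score, 0.305 with the immediate early and 0.303 with the inflammatory score. The immediate early and inflammatory scores are not independent, with a rho of 0.455. Ly96 had a rho of -0.313 with the MHC class II score and was above 0 in 14 of the lowest and 3 of the highest 25 cells.

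Among signalling genes 5 of 21 JAK and STAT genes were above 0 in 50% or more of cells, a share near the 23.9% of all genes, and 4 at 10 CPM. Jak1, the kinase shared by interferon, IL-10 and gp130 receptors, was above 0 in 72 cells with a median of 170.3 CPM, the SUMO ligase Pias1 and the phosphatase Ptpn6 in 66 each, Stat6, which acts after IL-4, in 63 and Stat3 in 50. Stat2 was above 0 in 35 cells. The kinases Tyk2 and Jak2, the latter brought by the Ifngr2 chain, were above 0 in 22 and 20 cells and at 10 CPM in 10 and 11. Pias1 had a rho of 0.307 with the interferon response score. Socs3, an inhibitor of gp130 receptors, had a rho of 0.417 with the immediate early score and was above 0 in 4 of the lowest and 16 of the highest 25 cells. Socs6 had a rho of 0.358 with the MHC class II and 0.319 with the monocyte-derived score, and these scores had a rho of 0.360 with each other.

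Of 38 genes of MyD88, TRAF and NF-kB signalling 9 were above 0 in 50% or more of cells, again near the 23.9% of all genes, and 1 at 10 CPM, a lower share than the 8.88% of all genes. Unc93b1, which carries nucleic acid receptors to endosomes, was above 0 in 75 cells, with a median of 411.4 CPM, and was the 1 that reached 10 CPM in that share, in 66 cells. It was followed by Irak4 in 61 cells, Irf5 in 60 and Casp8 in 56, and Myd88 was above 0 in 44. Birc3, an inhibitor of apoptosis bound to TRAF proteins, was the 1 gene of this list called with all of the tissue-resident, MHC class II and monocyte-derived scores, with rho of -0.416, 0.334 and 0.338. It was above 0 in 17 of the lowest and 8 of the highest 25 cells for the tissue-resident score. The adaptor Ticam1 had a rho of 0.345 with the MHC class II score and was at 10 CPM in 0 of the lowest and 2 of the highest cells.

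Of 12 SMAD pathway genes 2 were above 0 in 50% or more of cells, and both, Skil in 64 cells and Ski in 50, encode repressors of SMAD signalling. Smad1 was above 0 in 34 cells and Smad2 and Tgif1 in 26 each. Skil had a rho of -0.324 with the tissue-resident score. It was the 1 gene of the 12 called lower with that score, against 2.06% of all genes, and its relation to Tgfbr2 was not tested. Of 11 ligand genes with values 1 was above 0 in 50% or more of cells, Il16 in 40. It was followed by Il15 in 29, Tnfsf9 in 27 and Tnf in 20. Il1b was above 0 in 17 cells, Tgfb1 in 10 and Il6 in 7. Il16 had a rho of -0.346 with the monocyte-derived score and Tnfsf9 of 0.497 with the immediate early score. Members of these lists beyond the first 4 were named after their values were seen, except where they were called with a tissue-resident, MHC class II or monocyte-derived score.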

How the data were processed

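Transcriptomes of single macrophages from the AV node were measured in 76 libraries of 1 group. The authors deposited CPM, rounded to 1 decimal, for 9235 genes, and each column summed to between 999950 and 1000039. Alignment and counting tools are listed, per the submitters' processing notes, as STAR (2.3.0) with HTSeq (0.6.0), on build mm9, with no role or order. The annotation and settings are not given in the sources used here. SMARTer and Nextera XT chemistry, per the labels' protocols, reads whole transcripts without strand or molecular identifiers. Every gene was above 0 in at least 6 libraries, so genes found in fewer cells are not analysed here.

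The CPM of 1 read was estimated per library as the largest step of which at least 95% of the low values were whole multiples within 0.051 CPM (97.9% in the poorest library). The depths are estimates and served only for thinning to 250000 reads and for the comparison of libraries. State scores were means of standardised log2(CPM + 1) over list genes above 0 in at least 8 cells, and a list gene was set against the score without itself. A rho of 0.3 in size was the threshold, and the calculation was tested on simulated data. The simulated relations were strong and set in genes of higher mean CPM than Tlr3 or Il21r. The simulation therefore does not cover weak relations or genes found in few cells, and lends the calls no support. The 25 lowest and 25 highest cells of a score are ranges, not types. Members are named as follows: all with their cells above 0, values for those in 50% or more of cells and the next in each family, all called against a score, the 5 highest and 5 lowest pairs, and per pathway list the first 4 and those called against the first 3 scores. The members, lists and thresholds were chosen with earlier results of these data known. Symbols were matched to the reference without regard to case, and all 42 members matched. Promoters came from RefSeq on GRCm38.p6, gene order and overlaps from the RefSeq annotation, and exon lengths from GENCODE M21. The authors counted on mm9, so genes were matched by symbol and no positions were carried between builds. Python 3.11.15, numpy 2.4.6, pandas 2.3.3, scipy 1.17.1 and matplotlib 3.10.9 were used. Doublets were not called. The values of 1 gene of the pathway lists are not reported here.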

Additional observations from a re-analysis of the deposited data

How the results depend on the processing

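Detection depended on the threshold. The 15 members above 0 in 50% or more of cells came to 1 at 10 CPM and 5 after thinning to 250000 reads, and to 15 with every library counted as 1 cell. The 1 complete pair of chains in that share of cells came to 0 at 10 CPM. At 10 CPM the count was 1 for MyD88, TRAF and NF-kB genes, 1 for SMAD genes and 0 for ligands. The 5 combinations of member and score called higher were 3 over genes above 0 in at least 20 cells and 8 without the lower quartile of cells by genes above 0, and the 4 called lower were 2 over genes above 0 in at least 20 cells, where fewer genes were tested. The median rho over pairs of members was -0.00869 with values below 10 CPM set to 0 and 0.00758 given the genes above 0 per cell, and the cause was not tested.

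None of the 9 called combinations turned its direction under the other settings that gave it a value, or when any 1 cell was left out, an alternative chosen after seeing the data. The 9 were picked for their size in these same cells, so the kept direction is no separate support. With values below 10 CPM set to 0, 7 of the 9 were under 0.3 in size, and by Pearson r 5 were. For Tgfbr2 rho ran from 0.266 to 0.471 with the tissue-resident and from -0.391 to -0.271 with the monocyte-derived score, for Il1rap from 0.0690 to 0.320 and for Tlr3 from -0.344 to -0.133. Without 1 cell the calls of Il1rap (0.285), Il1rl1 (0.288), Il21r (-0.284), Tnfrsf17 (0.263), Tlr3 (-0.279) and Tgfbr2 with the interferon response score (0.299) could fall under 0.3 in size. The smallest library, of an estimated 259557 reads, limits what an absent chain shows. No paired analysis was possible because there is 1 group.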
